A study of Mus musculus with 10 samples.

Results

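Colony-stimulating factor (CSF) receptors and their ligands, which control the survival of microglia, were examined in hippocampal RNA from DHT-treated and void-treated female P301S mice. The group holds 7 of the 56884 genes counted: the ligands Csf1 and Il34, their receptor Csf1r, the receptor subunits Csf2ra, Csf2rb and Csf2rb2, and the receptor Csf3r. They were chosen by gene symbol, and all 7 passed the expression filter that 17622 genes passed. P301S mice (PS19, on a B6;C3 background) carry a human 1N4R MAPT transgene with the P301S mutation that is driven by the mouse Prnp promoter. All 10 females carried it and kept their ovaries. From 6 months of age, 5 of them had SILASTIC tubing with 10 mm of DHT, an androgen that aromatase cannot convert to estrogen, under the skin for 12 weeks, and 5 had a void implant. Hippocampi were collected at 9 to 9.5 months, and 1 library was made per mouse. The comparison asks how added androgen changes the hippocampal transcriptome of females with tauopathy.

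Microglia depend on signalling through CSF1R, a receptor tyrosine kinase, for their survival and division. CSF1R has a pair of ligands that differ in their main source in the brain, with IL-34 made largely by neurons and CSF1 largely by glia. The other receptors belong to the cytokine receptor family without a kinase of their own: CSF2RA pairs with the common beta chain, encoded by Csf2rb, to bind GM-CSF, Csf2rb2 encodes a second beta chain of mice that serves the IL-3 receptor, and CSF3R binds G-CSF and is best known from neutrophils.

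Total counts were 47113661, 31002573, 32844884, 27188854 and 33805888 in void-treated mice 4, 5, 9, 10 and 11, and 36379142, 40400386, 45947784, 33523527 and 34686496 in DHT-treated mice 1, 2, 3, 5 and 6. The labels do not say what the numbers after the letter S in the library titles stand for. These numbers do not interleave between the groups, so whatever they follow and the treatment cannot be told apart. Levels below are CPM, counts scaled to a common library size with edgeR's TMM factors. Markers of choroid plexus epithelium, a tissue that lies in the ventricle next to the hippocampus, differed between the groups. Summed over 12 genes, they were at 1722, 389.7, 3273, 932.4 and 360.2 CPM in void-treated mice 4, 5, 9, 10 and 11, and at 5744, 4110, 4228, 3911 and 4351 CPM in DHT-treated mice 1, 2, 3, 5 and 6. Every DHT-treated mouse lay above every void-treated mouse, with void-treated mouse 9 nearest to the DHT-treated mice. All 12 genes were tested, and 12 had a positive log2 fold change, beside 52.4% of all genes tested. In edgeR 4 passed the test with a higher level, beside 5.22% of all genes tested. At an unadjusted p under 0.05 12 were higher, beside 13.1%. Enpp2 was the most abundant. None of the 12 was at 0 in all mice. The part of choroid plexus tissue in the differences below was not tested beyond a fit with these markers as a covariate and fits without each mouse.

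The ligand Csf1 (ENSMUSG00000014599.11) was at 26.8, 32, 35.8, 34.8 and 28.6 CPM in void-treated mice 4, 5, 9, 10 and 11. In DHT-treated mice 1, 2, 3, 5 and 6 it was at 45.2, 35.3, 43.2, 42.9 and 46.0 CPM. DHT-treated mouse 2 lay within the range of the void-treated mice and the other 4 DHT-treated mice lay above it. The mean was 31.6 ± 3.87 CPM (SD, n = 5) with void and 42.5 ± 4.26 CPM (SD, n = 5) with DHT. Csf1 rose by 0.43 on the log2 scale, or 34.6% (standard error 0.096, adjusted p = 0.0242 in edgeR's quasi-likelihood fit, Benjamini-Hochberg over all genes tested). This call rested on single mice. Csf1 had an adjusted p of 0.0644 without void-treated mouse 4, 0.0921 without void-treated mouse 11, 0.0804 without DHT-treated mouse 1, 0.0611 without DHT-treated mouse 3, 0.0566 without DHT-treated mouse 5 and 0.0510 without DHT-treated mouse 6 in edgeR, with log2 fold changes from 0.37 to 0.49 over the 10 fits that left out 1 mouse.

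The other ligand, Il34 (ENSMUSG00000031750.16), was at 29.4, 28.3, 33.2, 31.5 and 28.2 CPM in void-treated mice 4, 5, 9, 10 and 11 and at 24.6, 27.5, 23.6, 29.8 and 29.5 CPM in DHT-treated mice 1, 2, 3, 5 and 6. The groups overlapped, with DHT-treated mice 1, 2 and 3 below all void-treated mice and DHT-treated mice 5 and 6 among them. Its means were 30.1 ± 2.16 CPM with void and 27 ± 2.80 CPM with DHT (SD, n = 5 each), and its log2 fold change of -0.16 (standard error 0.082) did not pass the test (edgeR, Benjamini-Hochberg adjusted p = 0.369). Neuron markers, the genes of the cells that make most Il34, were also lower in sum: 7808, 8506, 7790, 7926 and 8308 CPM in void-treated mice 4, 5, 9, 10 and 11, and 6784, 7653, 7264, 7591 and 7776 CPM in DHT-treated mice 1, 2, 3, 5 and 6. The sums of the groups did not overlap, although 0 of 10 neuron genes passed in either direction in edgeR or DESeq2 and 1 was lower at an unadjusted p under 0.05. Map2 was the most abundant of these genes and none was at 0. With the libraries scaled on neuron genes, which moved the median over all genes tested from 0.00937 to 0.125 (log2), Il34 had a log2 fold change of -0.05. Whether fewer neurons, or less RNA per neuron, go with these values cannot be told apart in bulk tissue, and the same holds for fewer or more microglia in the results that follow.

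Csf1r (ENSMUSG00000024621.17), the receptor that both ligands bind, was at 97.2, 96.6, 104, 120 and 96.4 CPM in void-treated mice 4, 5, 9, 10 and 11. With DHT it was at 176, 130, 131, 158 and 159 CPM in mice 1, 2, 3, 5 and 6. The groups did not overlap, and void-treated mouse 10 came nearest to the DHT-treated mice. From 103 ± 10.2 CPM with void and 151 ± 19.5 CPM with DHT (SD, n = 5 each), Csf1r rose by 0.55 in log2 units (standard error 0.094, adjusted p = 0.00965, edgeR with Benjamini-Hochberg adjustment), or 46.4%. Leaving out each mouse in turn gave log2 fold changes from 0.46 to 0.61, all past the test. Csf1r overlaps Hmgxb3 on the opposite strand in the GENCODE M21 annotation, and 774 of its 5721 windows of 100 bases, 13.5%, also occur in Hmgxb3 transcripts. Hmgxb3 itself was at 49.5 ± 4.79 CPM with void and 50.5 ± 5.33 CPM with DHT (SD, n = 5 each), and its log2 fold change was 0.03 (adjusted p = 0.915, edgeR with Benjamini-Hochberg adjustment) and did not pass. The part of shared reads in the Csf1r values was not tested.

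Csf3r (ENSMUSG00000028859.15), the G-CSF receptor, was at 5.92, 7.16, 6.30, 8.60 and 5.42 CPM in void-treated mice 4, 5, 9, 10 and 11 and at 15.8, 9.33, 14.3, 12.6 and 10.9 CPM in DHT-treated mice 1, 2, 3, 5 and 6. The lowest DHT-treated mouse, number 2, lay just above the highest void-treated mouse, number 10, so the groups did not overlap. The means were 6.68 ± 1.25 CPM with void and 12.6 ± 2.59 CPM with DHT (SD, n = 5 each). Csf3r rose by 0.92 in log2 units (standard error 0.16, adjusted p = 0.00990, edgeR with Benjamini-Hochberg adjustment), or 89.2%. It passed without any single mouse, with log2 fold changes from 0.79 to 1.02. Neutrophils, the cells in which this receptor is best known, left few counts: 11 of 12 neutrophil markers did not reach the expression filter, and these 11 together had 8 to 38 counts per mouse, against 181 to 685 counts of Csf3r. Ly6g had 0 or 1 count and S100a8 had 2 to 8. The summed level of the 12 markers was 2.37, 2.65, 1.83, 2.25 and 2.10 CPM in void-treated mice 4, 5, 9, 10 and 11 and 2.10, 1.63, 1.89, 2.78 and 2.89 CPM in DHT-treated mice 1, 2, 3, 5 and 6, with Mmp9 the most abundant, and the groups overlapped.

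The alpha subunit Csf2ra (ENSMUSG00000059326.8) was at 11.9, 14.5, 11.1, 12.3 and 10.5 CPM in void-treated mice 4, 5, 9, 10 and 11 and at 13.6, 11.4, 13.4, 14.4 and 14.8 CPM in DHT-treated mice 1, 2, 3, 5 and 6. The groups overlapped over most of their range. With means of 12.0 ± 1.54 and 13.5 ± 1.31 CPM (SD, n = 5 each), its log2 fold change of 0.17 (standard error 0.10) did not pass (adjusted p = 0.476, edgeR with Benjamini-Hochberg adjustment). It was 0.09 without void-treated mouse 11, 0.10 without DHT-treated mouse 5 and at most 0.24, without void-treated mouse 5, and passed in none of the 10 fits that left out 1 mouse.

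The common beta chain Csf2rb (ENSMUSG00000071713.7), which pairs with that subunit, was at 1.67, 1.57, 1.49, 2.18 and 1.20 CPM in void-treated mice 4, 5, 9, 10 and 11, from 40 to 79 counts. It was at 5.25, 2.29, 4.0, 3.44 and 3.13 CPM in DHT-treated mice 1, 2, 3, 5 and 6, from 93 to 192 counts. The groups did not overlap, with the same pair of mice nearest to each other as for Csf3r, DHT-treated mouse 2 and void-treated mouse 10. From 1.62 ± 0.357 to 3.62 ± 1.10 CPM (SD, n = 5 each), Csf2rb rose by 1.16 in log2 units (standard error 0.22, adjusted p = 0.0128, edgeR with Benjamini-Hochberg adjustment), a 2.24-fold level. It passed without any single mouse. Its log2 fold change was under 1 only without DHT-treated mouse 1, at 0.96, among the 10 fits that left out 1 mouse.

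The second beta chain, Csf2rb2 (ENSMUSG00000071714.8), was at 1.84, 1.60, 1.40, 1.66 and 1.68 CPM in void-treated mice 4, 5, 9, 10 and 11 and at 4.15, 1.75, 2.89, 2.15 and 2.29 CPM in DHT-treated mice 1, 2, 3, 5 and 6. DHT-treated mouse 2 was below void-treated mouse 4, so the groups overlapped, and DHT-treated mouse 1 was the highest. Its means were 1.63 ± 0.160 and 2.65 ± 0.935 CPM (SD, n = 5 each), and its log2 fold change of 0.69 (standard error 0.22) did not pass (adjusted p = 0.0933, edgeR with Benjamini-Hochberg adjustment). It passed without DHT-treated mouse 2, with a log2 fold change of 0.81 and an adjusted p of 0.0387 in edgeR, and without DHT-treated mouse 1 the values were 0.44 and 0.250.

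**Figure D1:**
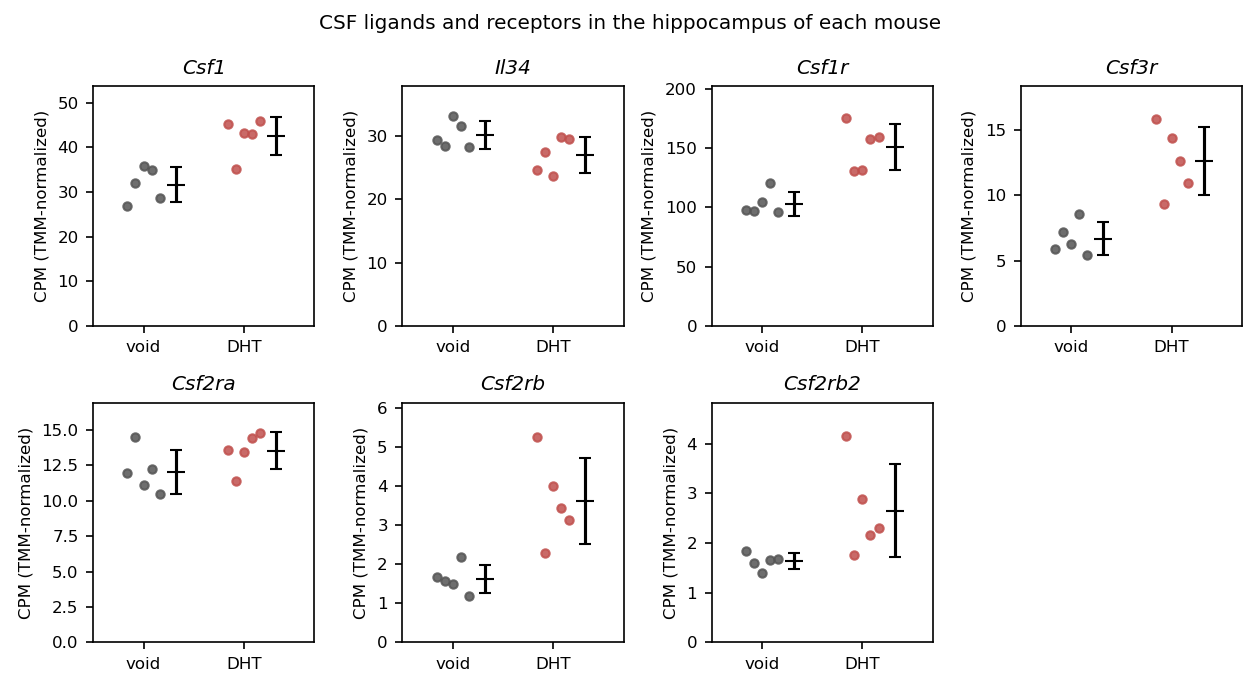
TMM-normalized CPM (vertical axes, from 0) of the 7 genes in each of 5 void-treated (grey) and 5 DHT-treated (red) mice, with the mean and SD of each group as black bars. The points of the groups are apart for Csf1r, Csf3r and Csf2rb and overlap for Csf1, Il34, Csf2ra and Csf2rb2.

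In all, 4 of the 7 genes passed the test with a higher level (Csf1r, Csf3r, Csf2rb and Csf1), where 5.22% of all genes tested did. That share depended on single mice: it was 2.77% without void-treated mouse 4, 3.09% without void-treated mouse 10, 1.97% without void-treated mouse 11, 2.23% without DHT-treated mouse 1 and 2.93% without DHT-treated mouse 3, where 3, 4, 3, 3 and 3 of the 7 genes passed. In the other direction 0 of 7 passed, against 0.261% of all genes tested (46 genes, and from 5 without void-treated mouse 11 to 77 without DHT-treated mouse 2; with the libraries scaled on neuron genes 1517 genes were higher, 8.61%, and 6 lower, with 4 and 0 of the 7), and 0 were lower at an unadjusted p under 0.05 in edgeR or at an adjusted p under 0.05 in DESeq2. Past both an adjusted p of 0.05 and a log2 fold change of 1 was 1 gene, Csf2rb, against 2.17% of all genes tested. In 3 genes every DHT-treated mouse was above every void-treated mouse, which held for 5.39% of all genes tested. The median log2 fold change of the 7 was 0.55, beside 0.00937 over all genes tested, and 6 of 7 were positive, beside 52.4%. With the choroid plexus markers as a covariate, 0 of all 17622 genes passed in edgeR in either direction, and so 0 of the 7. Without the covariate, 5 of the 7 and 13.1% of all genes tested were higher at an unadjusted p under 0.05 in edgeR. In the fit with the covariate, 3 of the 7 (Csf1r, Csf2rb and Csf3r) and 5.53% of all genes tested were (975 higher and 241 lower). In that fit the log2 fold changes were 0.46 for Csf1r (adjusted p = 0.589), 0.87 for Csf3r (adjusted p = 0.577), 0.91 for Csf2rb (adjusted p = 0.692), 0.32 for Csf1 (adjusted p = 0.758) and 0.60 for Csf2rb2 (adjusted p = 0.842, all from edgeR with Benjamini-Hochberg adjustment). They kept their direction, and those for Csf2ra and Il34 were 0.26 and -0.26. The standard errors were larger with the covariate: 0.16 for Csf1r, 0.29 for Csf3r, 0.39 for Csf2rb and 0.16 for Csf1, against 0.094, 0.16, 0.22 and 0.096 without it. Because the choroid plexus sums did not overlap between the groups, this fit can hardly tell the markers and the treatment apart. Without void-treated mouse 9, the void-treated mouse with the highest choroid plexus sum, the log2 fold changes of Csf1r, Csf3r and Csf2rb were 0.55, 0.90 and 1.14.

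Levels can be compared between genes only per length of transcript, here CPM per kilobase of all exons in GENCODE M21. In void-treated mice Csf1r had the highest level, 17.8 ± 1.77, followed by Il34 at 15.4 ± 1.11, Csf1 at 5.99 ± 0.733, Csf2ra at 4.20 ± 0.538, Csf3r at 1.85 ± 0.345, Csf2rb2 at 0.345 ± 0.0338 and Csf2rb at 0.223 ± 0.0491 CPM per kilobase (SD, n = 5). The ranges of Csf1r and Il34 overlapped, as did those of the beta chains, although Csf1r was above Il34 and Csf2rb2 above Csf2rb in each of the 5 mice. In DHT-treated mice the order of the means was the same, at 26.1 ± 3.37, 13.8 ± 1.43, 8.05 ± 0.807, 4.71 ± 0.457, 3.49 ± 0.717, 0.559 ± 0.197 and 0.498 ± 0.151 CPM per kilobase (SD, n = 5). Csf1r and Il34 were then apart, while Csf2ra and Csf3r now overlapped, and so did the beta chains, with Csf2rb2 above Csf2rb in 4 of 5 mice. Il34 made up 74.7, 70.5, 71.4, 70.9 and 72.6% of the summed level per kilobase of Il34 and Csf1 in void-treated mice 4, 5, 9, 10 and 11, and 59.5, 67.8, 59.5, 65.2 and 63.4% in DHT-treated mice 1, 2, 3, 5 and 6. The neuronal ligand was thus the larger part in every mouse, and a smaller part in each DHT-treated mouse than in any void-treated mouse.

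Because a difference between log2 levels within a mouse does not depend on the scaling between libraries, 11 such differences were compared between the groups. Csf1r minus Il34 was 1.77 ± 0.10 with void and 2.47 ± 0.22 with DHT (log2, SD, n = 5 each), a difference of 0.70 with no overlap between the groups (p = 0.00794 by exact permutation, two-sided, the lowest value possible for groups of 5, and 0.0437 after Benjamini-Hochberg adjustment over the 11). Csf1 minus Il34 was 0.07 ± 0.12 with void and 0.65 ± 0.22 with DHT (log2, SD, n = 5 each), a difference of 0.59 in which again the 5 DHT-treated mice lay above the others (exact permutation p = 0.00794, adjusted p = 0.0437). The ligands therefore shifted relative to each other, whereas Csf1r minus Csf1 differed by 0.12, with 3 DHT-treated mice above all void-treated mice (exact permutation p = 0.175, adjusted p = 0.240).

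The receptors were also set against the mean of 10 genes that mark homeostatic microglia, such as P2ry12 and Tmem119. These genes summed to 397.7, 402.2, 363.6, 423.7 and 400.4 CPM in void-treated mice 4, 5, 9, 10 and 11 and to 747.5, 525.6, 541.4, 540.7 and 498.7 CPM in DHT-treated mice 1, 2, 3, 5 and 6. The sums did not overlap, and none of the 10 genes was at 0. All 10 had a positive log2 fold change, beside 52.4% of all genes tested, with a median of 0.38. In edgeR 3 passed with a higher level, among them Cx3cr1 and Gpr34, beside 5.22% of all genes tested. With the choroid plexus covariate 0 of the 10 passed, as of all genes tested. In that fit 5 were higher at an unadjusted p under 0.05 in edgeR, beside 5.53% of all genes tested. Relative to the homeostatic microglia genes, Csf2rb was higher by 0.70 (from -4.13 ± 0.28 to -3.43 ± 0.29, log2, SD, n = 5 each), with 4 of 5 DHT-treated mice above all void-treated mice (exact permutation p = 0.0159, adjusted p = 0.0437). Csf3r was higher by 0.49 (from -2.11 ± 0.23 to -1.62 ± 0.20, log2, SD, n = 5 each), again with 4 of 5 mice above (exact permutation p = 0.0159, adjusted p = 0.0437). DHT-treated mouse 2 was the one within the void range in both. Csf1r minus the same mean differed by 0.13 (exact permutation p = 0.238, adjusted p = 0.291) and Csf1 minus it by 0.02 (exact permutation p = 0.897, adjusted p = 0.897), neither beyond the spread between mice. Csf2rb2 differed by 0.21 (exact permutation p = 0.175, adjusted p = 0.240) and Csf2ra by -0.24 (exact permutation p = 0.119, adjusted p = 0.218). With the median of the list in place of its mean, the differences were 0.035 for Csf1r, -0.081 for Csf1, 0.11 for Csf2rb2 and -0.34 for Csf2ra, none past the threshold, and 0.60 for Csf2rb and 0.39 for Csf3r, both past it (exact permutation tests). Il34 minus the mean of the neuron genes differed by -0.05 (exact permutation p = 0.484, adjusted p = 0.532), less than the spread between mice. The adjusted p of the 4 differences that passed rose to 0.0698 without DHT-treated mouse 1 or 3 and to 0.0873 without void-treated mouse 4, 5, 9 or 11 or DHT-treated mouse 5 or 6 (exact permutation tests, whose smallest unadjusted p with 4 mice against 5 is 0.0159). Without void-treated mouse 10 or DHT-treated mouse 2 the 4 stayed past the threshold.

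**Figure D2:**
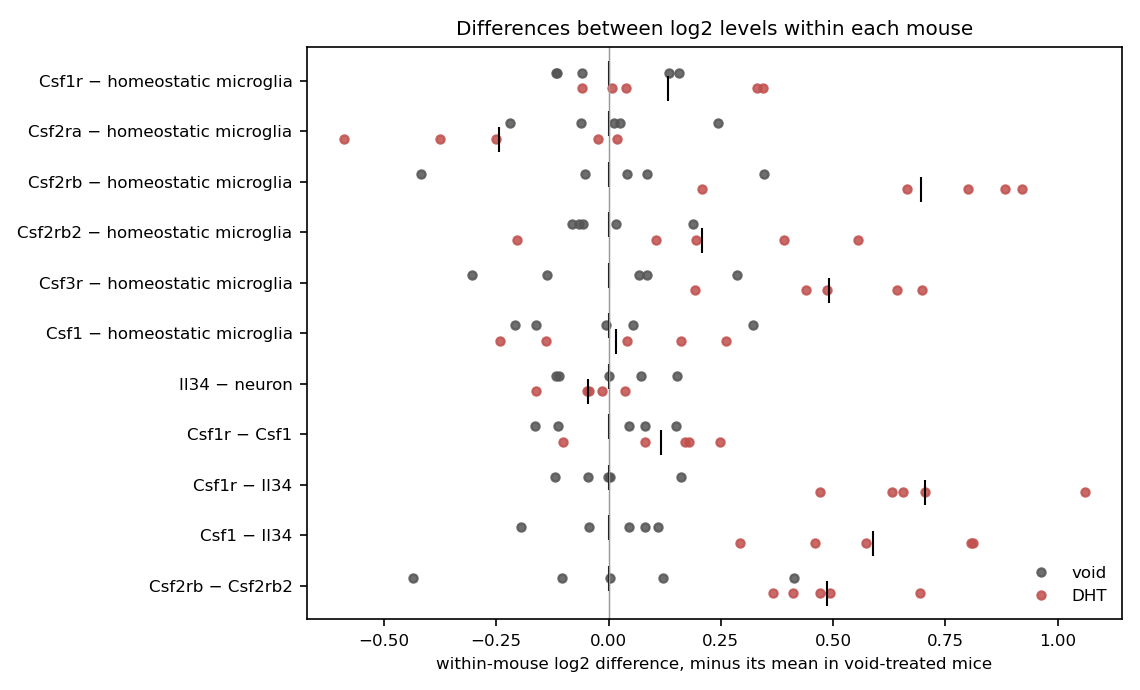
The 11 within-mouse differences of log2 levels, each shown relative to its mean in the void-treated mice (horizontal axis, log2), for 5 void-treated (grey) and 5 DHT-treated (red) mice, with black ticks at the group means. All DHT-treated points lie to the right of all void-treated points for Csf1r minus Il34 and Csf1 minus Il34, and 4 of 5 do so for Csf2rb and Csf3r minus homeostatic microglia.

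Csf2rb and Csf2rb2 are near copies, so reads could be assigned to either. Their longest open reading frames in GENCODE M21, of 2691 and 2637 bases, were identical at 2505 of 2631 aligned positions (95.2%), with an unbroken identical run of 242 bases, longer than a 100-base read. Of all 100-base windows of their transcripts, 334 were shared, 4.63% of those of Csf2rb and 6.82% of those of Csf2rb2. The stretches of 75 bases in which they differ most are shown to give the positions at which a read tells them apart, with the 14 differing bases in capitals. The first starts at base 316 of the Csf2rb reading frame and the second at base 319 of that of Csf2rb2.
Csf2rb: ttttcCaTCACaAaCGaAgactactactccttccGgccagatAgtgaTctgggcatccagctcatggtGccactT
Csf2rb2: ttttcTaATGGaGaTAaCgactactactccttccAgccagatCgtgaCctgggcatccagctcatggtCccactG
How reads that match both were counted is not given in the sources used here, so the split of counts between the genes is uncertain. With the counts of both added up, the log2 fold change was 0.95 (adjusted p = 0.0192, edgeR with Benjamini-Hochberg adjustment). Within a mouse, Csf2rb minus Csf2rb2 was -0.03 ± 0.31 with void and 0.45 ± 0.13 with DHT (log2, SD, n = 5 each), with 3 of 5 DHT-treated mice above all void-treated mice. This difference of 0.49 did not pass after adjustment (two-sided exact permutation test, p = 0.0238, adjusted p = 0.0524), and did so without void-treated mouse 10, at 0.59 (exact permutation test, adjusted p = 0.0349). Il34 overlaps the antisense genes Gm15894 and Gm15895 in the same annotation, and whether strand was used in counting is not given in the sources used here.

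Ligands of the other receptors were at or near 0. Csf2, which encodes GM-CSF, had 0 counts in every mouse, which allows up to 3 counts per library by counting error alone, Csf3, which encodes G-CSF, had 1 count in all mice together, and so did Il3. Il5 had 1 to 4 counts per mouse, and its receptor subunit Il5ra had 0 to 2. These 5 of 8 genes did not reach the expression filter, so the levels of the receptors were measured where their own ligands were not detectable at this depth, or barely so. Of the other 3, Il3ra, the alpha subunit of the IL-3 receptor, had a log2 fold change of 0.20 (adjusted p = 0.831), Ptprz1, a phosphatase that also binds IL-34, had 0.03 (adjusted p = 0.893) and Sdc1, a proteoglycan that binds IL-34, had 0.59 (adjusted p = 0.247, all from edgeR with Benjamini-Hochberg adjustment). None of the 3 passed in DESeq2 either, and 1, Sdc1, was higher at an unadjusted p under 0.05 in edgeR.

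Of 25 genes that act downstream of CSF1R, 8 passed with a higher level and 0 with a lower one in edgeR (10 and 0 in DESeq2, and 0 lower at an unadjusted p under 0.05), where 5.22% of all genes tested passed with a higher level in edgeR and 4.36% of those with an adjusted p did in DESeq2. The 25 had a median log2 fold change of 0.11, and 17 were positive. Ptpn6, which encodes the phosphatase SHP-1, rose by 1.22 (standard error 0.16, adjusted p = 0.00670) and Tyrobp, which encodes the adaptor DAP12, by 1.31 (standard error 0.19, adjusted p = 0.00670) on the log2 scale in edgeR with Benjamini-Hochberg adjustment. The Src family kinase Fgr rose by 3.0 (standard error 0.48, adjusted p = 0.00761) in the same fit. It was at 0.211 ± 0.147 CPM with void and 1.65 ± 0.741 CPM with DHT (SD, n = 5 each). The remaining 17 genes did not pass.

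Cytokine receptors without a kinase of their own signal through JAK kinases and STAT factors. Of 14 such genes, 3 passed with a higher level and 0 with a lower one, in edgeR and in DESeq2 alike, with 0 lower at an unadjusted p under 0.05, and their median log2 fold change was 0.15. The shares over all genes tested were again 5.22% in edgeR and 4.36% in DESeq2. The 3 were Stat5a (0.85, standard error 0.17, adjusted p = 0.0164), Stat3 (0.37, standard error 0.083, adjusted p = 0.0227) and Socs3, a feedback inhibitor that STAT3 induces (0.94, standard error 0.22, adjusted p = 0.0321), as log2 fold changes in edgeR with Benjamini-Hochberg adjustment. Among 9 transcription factors of the myeloid lineage, several of which bind Csf1r regulatory sequence, 6 passed with a higher level and 0 with a lower one (7 and 0 in DESeq2, and 1 lower at an unadjusted p under 0.05), with a median of 0.43. The 4 with the lowest p were Irf8 (1.18, standard error 0.17, adjusted p = 0.00670), Spi1, which encodes PU.1 (0.88, standard error 0.18, adjusted p = 0.0166), Maf (0.24, standard error 0.053, adjusted p = 0.0238) and Cebpa (0.45, standard error 0.11, adjusted p = 0.0299, edgeR with Benjamini-Hochberg adjustment). Of 9 cell cycle genes tested, 1 passed with a higher level in edgeR, beside 5.22% of all genes tested, and 2 in DESeq2, beside 4.36%. In both, 0 passed with a lower level. At an unadjusted p under 0.05 in edgeR 3 were higher, beside 13.1% of all genes tested, and 0 lower. Of the 9, 7 had a positive log2 fold change, beside 52.4%. The 12 listed genes summed to 9.74 to 12.3 CPM with void and 11.8 to 18.35 CPM with DHT, and the groups overlapped. With so few genes, these counts give no result about the list. The gene that passed in edgeR was Cdk1, which rose by 1.45 (standard error 0.26, adjusted p = 0.0104, edgeR with Benjamini-Hochberg adjustment), from 0.260 ± 0.0629 to 0.715 ± 0.205 CPM (SD, n = 5 each). With the choroid plexus markers as a covariate, the fit in which 0 of all genes tested passed in edgeR, the genes of these lists at an unadjusted p under 0.05 were 7 of 25 downstream genes of CSF1R, 2 of 14 of the JAK and STAT list, 5 of 9 transcription factors and 1 of 9 cell cycle genes, all higher, where 5.53% of all genes tested were.

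**Figure D3:**
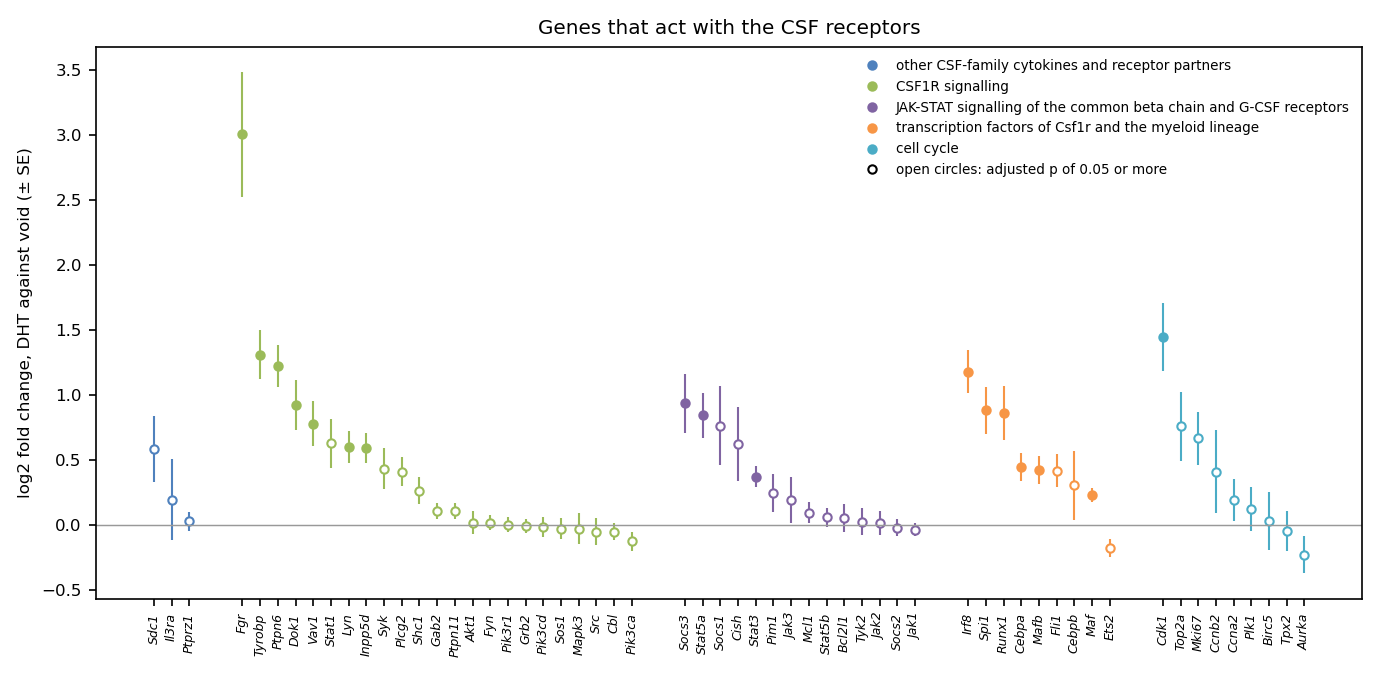
Log2 fold change of DHT against void with its standard error (vertical axis) for the tested genes of the 5 lists that are reported here, grouped and ordered by size (horizontal axis, gene), with filled circles for genes that passed at an adjusted p under 0.05 in edgeR and open circles for the others. Filled circles are all above 0 and are led by Fgr at 3.0.

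Other myeloid markers were looked at by list. Of 15 genes of disease-associated microglia, the state that microglia take up near lesions, 11 passed with a higher level, beside 5.22% of all genes tested, with a median log2 fold change of 1.06. Their sums were 1296, 1499, 1580, 1490 and 1426 CPM in void-treated mice 4, 5, 9, 10 and 11 and 2182, 1649, 1849, 2314 and 2188 CPM in DHT-treated mice 1, 2, 3, 5 and 6, with Apoe the most abundant and none at 0. In the fit with the choroid plexus covariate 0 of these 15 genes passed, as of all genes tested, and 13 had a positive log2 fold change with an unadjusted p under 0.05 in edgeR, beside 5.53% of all genes tested. Border-associated macrophages, which also express Csf1r, had 0 of 6 tested genes passing in either direction in edgeR and in DESeq2. At an unadjusted p under 0.05 in edgeR 1 of the 6 was higher, beside 13.1% of all genes tested, and 0 lower. In the fit with the covariate 3 of the 6 genes of these macrophages were higher at that p, beside 5.53% of all genes tested, and 0 lower. Their 7 genes summed to 6.70, 15.5, 2.45, 5.46 and 10.0 CPM in void-treated mice 4, 5, 9, 10 and 11 and to 11.9, 6.61, 12.7, 7.15 and 5.57 CPM in DHT-treated mice 1, 2, 3, 5 and 6. These sums overlapped, Mrc1 was the most abundant and none of the 7 was at 0 in all mice. For monocytes 0 of 3 tested genes passed in edgeR or DESeq2, with 0 at an unadjusted p under 0.05. The sum of the 6 monocyte genes was 28.5 to 31.9 CPM with void and 29.0 to 40.1 CPM with DHT, most of it Vcan, a gene that is also expressed outside monocytes. Which cells carried the Csf1r, Csf3r and Csf2rb transcripts was not tested.

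Markers of the hippocampal fields were present in all mice, with Prox1 of the dentate gyrus the most abundant and sums of 505.8 to 693.2 CPM with void and 488.3 to 670.8 CPM with DHT over 8 genes. Of the 8, 1 passed with a lower level in edgeR, beside 0.261% of all genes tested, and 0 passed with a higher one, beside 5.22%. Markers of striatum and thalamus summed to 59.7 to 83.1 CPM with void and 57.6 to 106 CPM with DHT over 6 genes, 0 of which passed in edgeR or DESeq2 (0 at an unadjusted p under 0.05), with Prkcd the most abundant. Among other cell types, 1 of 6 astrocyte genes (Gfap) and 1 of 7 meningeal fibroblast genes (Igf2) passed with a higher level, beside 5.22% of all genes tested. All 6 astrocyte genes had a positive log2 fold change, beside 52.4% of all genes tested, with a median of 0.15. In edgeR 3 of them were higher at an unadjusted p under 0.05, beside 13.1% of all genes tested. Their sum was 2181 ± 238.3 CPM with void and 2863 ± 380.9 CPM with DHT (SD, n = 5 each). The groups overlapped, with sums up to 2539 CPM with void and from 2430 CPM with DHT. Within the sum, Gfap was at 431 ± 95.3 CPM with void and 975.5 ± 254 CPM with DHT (SD, n = 5 each). In edgeR and in DESeq2, 0 of 8 oligodendrocyte, 0 of 6 endothelial and 0 of 6 mural genes passed, and of these only 2 oligodendrocyte genes were higher at an unadjusted p under 0.05. The log2 fold change was positive for 8 of 8 oligodendrocyte, 1 of 6 endothelial and 2 of 6 mural genes. With the choroid plexus covariate, again with 0 genes passing, 3 of 6 endothelial, 3 of 6 mural, 4 of 7 meningeal fibroblast, 2 of 6 astrocyte and 0 of 8 oligodendrocyte genes had a positive log2 fold change with an unadjusted p under 0.05 in edgeR, beside 5.53% of all genes tested.

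**Figure D4:**
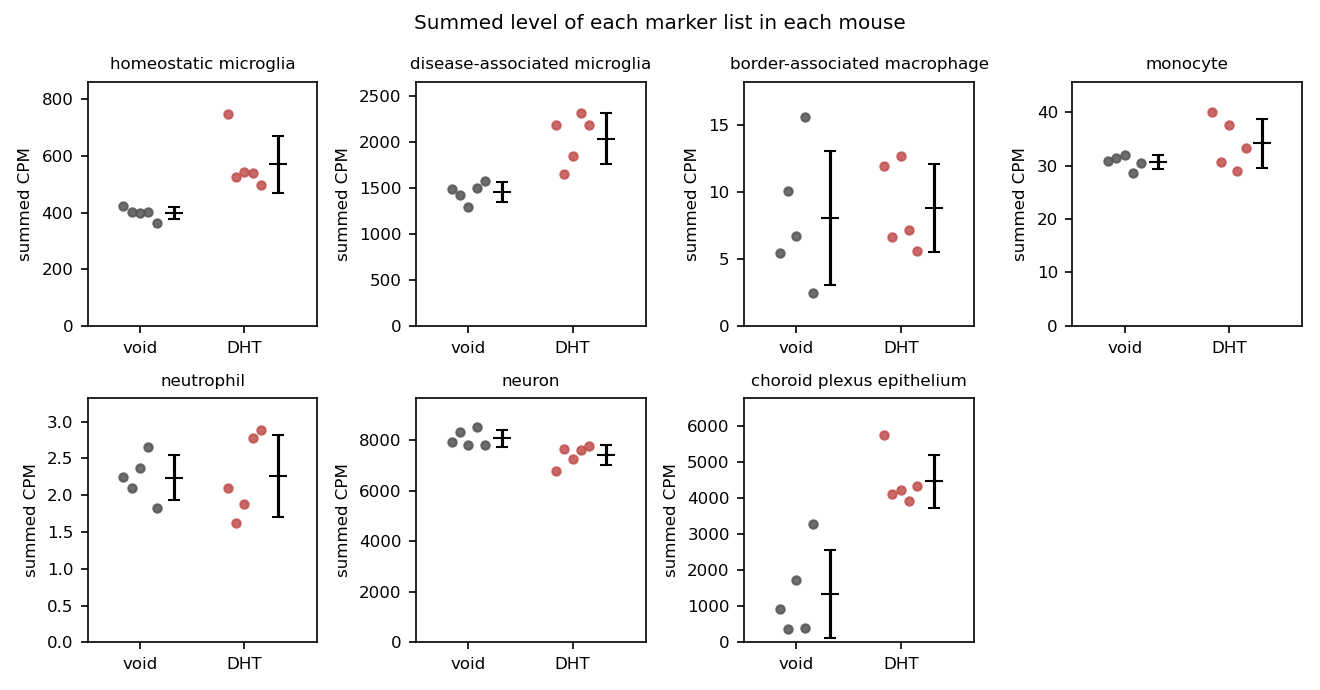
Summed CPM (vertical axes, from 0) of 7 marker lists in each of 5 void-treated (grey) and 5 DHT-treated (red) mice, with the mean and SD of each group as black bars. The groups are apart for both microglial lists, the neuron list and the choroid plexus list, and overlap for border-associated macrophages, monocytes and neutrophils.

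To see how the genes varied among mice of the same group, log2 CPM of the 10 mice were correlated after subtraction of each group's mean, as a description with no test, since the points share library depth and tissue composition. Csf2rb and Csf3r varied together most (Pearson r = 0.935), ahead of the beta chains with each other (r = 0.785). Csf1r had r = 0.677 with Csf2rb, 0.670 with Csf1 and 0.345 with Il34. Il34 had negative values with the beta chains and Csf3r, the lowest being r = -0.645 with Csf2rb2. Among the 14835 genes with at least 1 CPM on average, those most like Csf1r were Rps6ka1 (r = 0.967), Plod1, Vsir, Gm37069 and Cyth4 (r = 0.950). Among those most like Csf3r were Aif1, which encodes the microglial protein Iba1 (r = 0.973), Gfap (r = 0.951), Fyb and Vav1 (r = 0.948). For Csf2rb they were Vav1 (r = 0.957), Nckap1l, Phkg1, Rhoh and Ikzf1 (r = 0.936), and for Csf2rb2 they were Apbb1ip (r = 0.929), Pcdhb4, P4ha3, Elf4 and Apobec1 (r = 0.907). Npas3 (r = 0.970), Lrig1, Inppl1, Rgs3 and Eml3 (r = 0.941) were most like Csf1. Zfp444 (r = 0.988), Mrps18a, Dnlz, Morn4 and Pcid2 (r = 0.977) were most like Il34, and Rtel1 (r = 0.953), Neil1, Ushbp1, Rnf8 and Slc22a4 (r = 0.893) were most like Csf2ra.

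Promoter sequence was searched for the genes that had an entry, of which Csf1 and Csf3r rose and Csf2ra and Csf2rb2 did not pass. In the 250 bases before the start of Csf1, Csf3r, Csf2rb2 and Csf2ra (RefSeq, GRCm38.p6), 4 motifs were searched on both strands: GAGGAA, the core that PU.1 binds, TGTGGT for RUNX factors, AGGTCA, the half-site of many nuclear receptors, and TTCNNNGAA for STAT factors. Over 32851 mouse promoters of that length, 23.3% held GAGGAA, 14.0% TGTGGT, 14.0% AGGTCA and 7.02% TTCNNNGAA. GAGGAA was found in 3 of the 4 windows, all but that of Csf1, TTCNNNGAA in that of Csf2rb2, and neither TGTGGT nor AGGTCA in any of them. The 60 bases around the GAGGAA matches are given with the match in capitals, for Csf3r at chr4:126024546-126024605 on the plus strand, for Csf2rb2 at chr15:78305856-78305915 on the minus strand, and for Csf2ra at chr19:61228419-61228478 on the minus strand, where 2 matches adjoin.
Csf3r: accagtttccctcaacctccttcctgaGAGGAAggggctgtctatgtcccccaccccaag
Csf2rb2: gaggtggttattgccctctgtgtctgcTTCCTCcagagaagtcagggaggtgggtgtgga
Csf2ra: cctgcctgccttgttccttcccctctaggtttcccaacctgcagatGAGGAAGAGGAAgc
In Csf2rb2 the match lies on the opposite strand and so reads TTCCTC. The motif was found before Csf3r, which rose, and before Csf2ra and Csf2rb2, which did not pass, and a match is a description of sequence. There was no entry for Csf1r, Il34 or Csf2rb.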

How the data were processed

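The authors prepared mRNA libraries, sequenced paired 100-base reads, filtered them with HTStream, aligned them with STAR 2.7.10b and deposited the raw, unnormalized counts of each gene. The study's methods name the build mm10, and the submitters' processing notes name mm39 and GRCm39, so the only coordinates given are those of the RefSeq promoter sequences, in GRCm38.p6. Annotation release, strand and the handling of reads that match several genes are not given in the sources used here. GENCODE M21 gave symbols for 51948 of 56884 identifiers, and exon lengths and overlaps. Only 35 of the identifiers had the same version number as in M21, so these lengths may differ from those of the annotation used in counting.

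The tests were run with edgeR 4.0.16 in R 4.3.3 (TMM, filterByExpr, quasi-likelihood test), passing at a Benjamini-Hochberg adjusted p under 0.05. DESeq2 1.42.0 was the alternative. Standard errors were obtained as the log2 fold change over the root of the F statistic. Within-mouse differences used log2 CPM with a prior count of 2 and exact permutation tests in scipy 1.17.1. These count models and the permutation test were tested on simulated data. There, a larger share of the calls of DESeq2 than of those of edgeR was false, which limits the DESeq2 counts given above. The share of edgeR was also above the threshold of 0.05. The simulated counts were drawn with dispersions estimated by edgeR, for genes past its filter, so they cannot rank the tools on the measured data. Of each pathway list, at most the 4 passing genes with the lowest p per direction were named, and of each gene the 5 most like it. The genes and lists were chosen with earlier results of these data known. The results of some genes of these lists are not reported here.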

Additional observations from a re-analysis of the deposited data

Results flagged for a closer look

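In 76 sets of 5 mice, the gap between the highest or lowest mouse and its nearest neighbour was divided by the range of the set, and 4 sets exceeded Dixon's critical value of 0.71. Chance flags about 1 in 20 groups, or 3.8 of 76. DHT-treated mouse 2 was low for Csf1, at 35.3 CPM with the next mouse at 42.9 CPM (ratio 0.712). DHT-treated mouse 1 was high for the choroid plexus sum, at 5744 CPM with the next at 4351 CPM (ratio 0.76), and for the homeostatic microglia sum, at 747.5 CPM with the next at 541.4 CPM (ratio 0.828). Void-treated mouse 10 was high for the striatum and thalamus sum, at 83.1 CPM with the next at 64.9 CPM (ratio 0.778).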

How the results depend on the processing

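Of 316 values recomputed under other settings, 259 kept their direction and their side of the threshold (counts: stayed within 1.5 times). The 259 include values of results that had not passed to begin with. A further 42 belonged to results that had passed and no longer did. Among the 10 fits that left out 1 mouse, Csf1 passed in 4. Csf1r minus Il34, Csf1 minus Il34, and Csf2rb and Csf3r minus homeostatic microglia each passed in 2 of 10. No paired analysis was possible because only the replicate number 5 occurs in both groups. With the choroid plexus covariate, the log2 fold changes were 0.46 for Csf1r, 0.32 for Csf1, 0.91 for Csf2rb and 0.87 for Csf3r, none past the threshold, and the counts of higher genes fell to 0 of all genes tested, 0 of the 7 genes, 0 downstream of CSF1R, 0 of the JAK and STAT list, 0 transcription factors and 0 cell cycle genes. Standard errors were larger in this fit, at 0.16 against 0.094 for Csf1r and 0.39 against 0.22 for Csf2rb. The choroid plexus sums did not overlap between the groups, so the fit can hardly tell the markers and the treatment apart. The cause of the lower counts was not tested. DESeq2 called 2 cell cycle genes higher; over the 35297 genes it fitted it called 1220 higher (4.36% of those with an adjusted p) and 226 lower, where edgeR called 920 (5.22%) and 46 of 17622. A fold limit left 1 of the 7 genes. With both beta chains summed, the log2 fold change was 0.95 and passed. Leaving out each mouse in turn gave log2 fold changes of 0.37 to 0.49 for Csf1 and 0.44 to 0.81 for Csf2rb2. The within-mouse differences then ranged from 0.59 to 0.82 for Csf2rb and 0.42 to 0.57 for Csf3r minus homeostatic microglia, from 0.62 to 0.76 for Csf1r minus Il34, from 0.53 to 0.66 for Csf1 minus Il34 and from 0.38 to 0.59 for Csf2rb minus Csf2rb2. Other differences passed in 0 of the 10 fits. These were Csf1r (0.080 to 0.18), Csf2rb2 (0.12 to 0.31) and Csf2ra (-0.31 to -0.16) minus homeostatic microglia, Csf1r minus Csf1 (0.075 to 0.17) and Il34 minus neuron genes (-0.075 to -0.0080). Csf1 minus homeostatic microglia, near 0 throughout, ranged from -0.045 to 0.097, being -0.036 without void-treated mouse 4, -0.024 without void-treated mouse 11, -0.019 without DHT-treated mouse 5 and -0.045 without DHT-treated mouse 6, and was -0.081 with the median of the list. Csf2rb and Csf2rb2 had 40 to 192 counts per mouse, which limits their precision.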
